A study of Mus musculus with 8 samples.

Results

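Collagens are proteins of the extracellular matrix built from 3 chains wound around each other, and each chain has a gene of its own. Here the collagen chain genes of mouse brown adipose tissue (BAT) were taken as every gene whose symbol reads Col, a number, a, and a number. The table of 49452 genes held 44 such symbols. The 42 on autosomes are described, and the 2 on the X chromosome were set aside because X genes are listed at 0 in 3 of the 8 libraries. By structure, the 42 comprised 11 fibrillar chains, 4 type IV chains, 2 multiplexins, 6 beaded filament chains (type VI), 9 FACIT chains (fibril-associated collagens with interrupted triple helices), 3 short chain network chains, 1 anchoring fibril chain, 4 transmembrane chains and 2 others.

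RNA-Seq was made from BAT of male C57BL/6 mice, with 1 library per mouse and 4 groups of 2. In the cold experiment, mice aged 10 to 12 weeks were housed at 22 °C (replicates 4 and 7) or exposed to 4 °C for 24 h (replicates 2 and 11). The study's methods add that the cold mice spent 20 h at 4 °C and a further 4 h there without food, and whether the mice at 22 °C were fasted is not made clear. In the diet experiment, mice aged 32 weeks had received for 28 weeks a control diet (CD, 11 kJ% fat, replicates 6 and 8) or a high-fat diet (HFD, 54 kJ% fat, replicates 2 and 6). The labels name normal chow for the CD group, which was not settled here. All groups are wild type as far as the sources state. The study asked which transcripts follow BAT function, and the question here was how fibrillar and basement membrane collagens behave in its 2 comparisons, 4 °C against 22 °C and HFD against CD.

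Fibrillar collagens assemble into the fibrils that give tissue its tensile strength. Type I (Col1a1 and Col1a2) and type III (Col3a1) are the bulk of them in soft tissue, and type V (Col5a1, Col5a2, Col5a3) takes part in starting a fibril. Type IV collagen instead forms a sheet-like network in the basement membrane, the thin layer that surrounds each adipocyte and underlies blood vessel endothelium, and its common form contains 2 Col4a1 chains and 1 Col4a2 chain. Multiplexins (Col15a1, Col18a1) lie in the basement membrane zone, and type VI collagen forms beaded filaments next to it.

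One library in every group, namely replicate 4 at 22 °C, 11 at 4 °C, 8 under CD and 2 under HFD, has over 100 FPKM of Gm10800, a gene of satellite repeats. These are called Gm10800-high libraries here. The identifier in the sample description starts with SN for all 4 libraries of the cold experiment and for CD replicate 6, and with 7001432L for the other 3. As a check of the tissue, the brown fat marker Ucp1 had 699 to 6462 FPKM over the 8 libraries, and the lipid droplet protein gene Plin1 271 to 540 FPKM. The cartilage and tendon markers Acan, Comp, Sox9 and Scx summed to 0.183 to 0.786 FPKM, and Acan was listed at 0 in CD replicate 6. FPKM is the fragment number divided by transcript length in kilobases and by the mapped fragments of the library, so that levels of different chains can be set side by side.

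The type IV pair has an arrangement in the genome that no fibrillar pair shows. In GRCm38, Col4a1 (ENSMUSG00000031502, chromosome 8, 11198423 to 11312826, minus strand) and Col4a2 (ENSMUSG00000031503, chromosome 8, 11312805 to 11449287, plus strand) run away from each other and share 22 bases at their first ends. The other autosomal type IV pair, Col4a4 (minus strand) and Col4a3 (plus strand) on chromosome 1, is also head to head, with 71 bases between the genes. Col3a1 and Col5a2 on chromosome 1 are instead tail to tail, 24614 bases apart. The next 4 sequences show these joints and, for contrast, the 250 bases before the RefSeq start of the 2 fibrillar genes of highest level, read from RefSeq on GRCm38.p6, with capitals marking the TATA box letters TATAAA, the CAAT box letters CCAAT and the GC box letters GGGCGG where the strand shown or its complement holds them.
Col4a1 and Col4a2 shared bases, chr8:11312805-11312826, plus strand: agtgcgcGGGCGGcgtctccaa
Between Col4a4 and Col4a3, chr1:82586850-82586920, minus strand: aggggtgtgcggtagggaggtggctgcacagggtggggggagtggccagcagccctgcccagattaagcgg
Col3a1, chr1:45311288-45311537, plus strand: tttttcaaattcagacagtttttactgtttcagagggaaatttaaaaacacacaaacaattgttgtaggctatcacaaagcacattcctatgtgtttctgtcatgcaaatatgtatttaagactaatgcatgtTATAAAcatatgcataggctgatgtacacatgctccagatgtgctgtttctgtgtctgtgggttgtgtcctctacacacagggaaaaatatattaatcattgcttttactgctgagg
Col1a2, chr6:4505368-4505617, plus strand: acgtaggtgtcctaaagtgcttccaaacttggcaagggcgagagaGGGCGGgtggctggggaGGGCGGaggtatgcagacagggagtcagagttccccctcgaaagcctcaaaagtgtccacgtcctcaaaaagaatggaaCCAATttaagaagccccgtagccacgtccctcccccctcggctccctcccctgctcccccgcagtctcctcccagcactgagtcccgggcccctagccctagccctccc

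The windows differed in base composition. RefSeq windows of 300 bases, from 250 before to 50 after a start, were found for 33 of the 42 genes (36 windows). The Col4a1 and Col4a2 windows were 74.0% and 73.7% G or C with 37 and 33 CG dinucleotides, against a median of 52.7% and 7 over all 32851 windows. The Col3a1 window was 37.7% G or C and held no CG dinucleotide, and the Col1a2 window was 61.0% with 13. The fibrillar gene Col5a1 was, at 75.0% and 34 CG dinucleotides, as rich as the type IV pair, so base composition did not separate the classes. Of all windows, 13.6% held TATAAA, 37.4% held CCAAT and 35.7% held GGGCGG on either strand. The Col3a1 window held TATAAA, 117 bases before the start, and neither of the other motifs. The Col4a1 and Col4a2 windows held the CAAT box and GC box letters, the latter also inside the 22 shared bases, and the Col1a2 window held both as well. The third type IV window, that of Col4a4, was 63.3% G or C with 14 CG dinucleotides and held none of the 3 motifs. A match describes these letters only.

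Type IV and type III chains were the most abundant collagen transcripts in BAT. Averaged over the 8 libraries, Col4a1 had 97.1 FPKM, Col3a1 48.9, Col4a2 44.1, Col1a2 20.7 and Col6a1 12.7. Another 12 genes had a mean between 1.52 and 9.72 FPKM, in descending order Col5a3, Col6a3, Col6a2, Col27a1, Col15a1, Col5a2, Col1a1, Col18a1, Col12a1, Col5a1, Col14a1 and Col8a1. These 17 genes averaging 1 FPKM or more comprise 7 fibrillar chains and 2 type IV chains. Neighbours in this order overlapped widely across libraries, as Col3a1 (14.2 to 106 FPKM) did with Col4a2 (15.7 to 84.9 FPKM).

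The remaining 25 genes were low. Col16a1 (FACIT) reached 1.32 FPKM and Col13a1 (transmembrane) 1.17 FPKM, and 23 never exceeded 1 FPKM in any library. Those 23 were the fibrillar chains Col11a2, Col11a1, Col24a1 and Col2a1, the type IV chains Col4a3 and Col4a4, the type VI chains Col6a4, Col6a5 and Col6a6, the FACIT chains Col9a1, Col9a2, Col9a3, Col19a1, Col20a1 and Col22a1, the network chains Col8a2 and Col10a1, the anchoring fibril chain Col7a1, the transmembrane chains Col17a1, Col23a1 and Col25a1, and Col26a1 and Col28a1. None was listed at 0 in all 8 libraries. The cartilage collagen Col2a1, the main fibrillar chain of cartilage, had 0 to 0.0701 FPKM, and Col10a1, which marks hypertrophic cartilage, 0.116 to 0.238 FPKM. Col10a1 lies within Nt5dc1 on the opposite strand, and since the sources used here do not say whether strand was used for the FPKM, reads of the 2 cannot be told apart. The same limit holds for the last part of Col18a1, which overlaps Slc19a1, for the 22 shared bases of the type IV pair, and for opposite-strand genes over parts of Col4a1, Col4a2, Col4a3, Col5a1, Col5a3, Col6a4, Col6a6, Col9a3, Col12a1, Col13a1, Col14a1, Col15a1, Col22a1 and Col24a1.

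**Figure D1:**
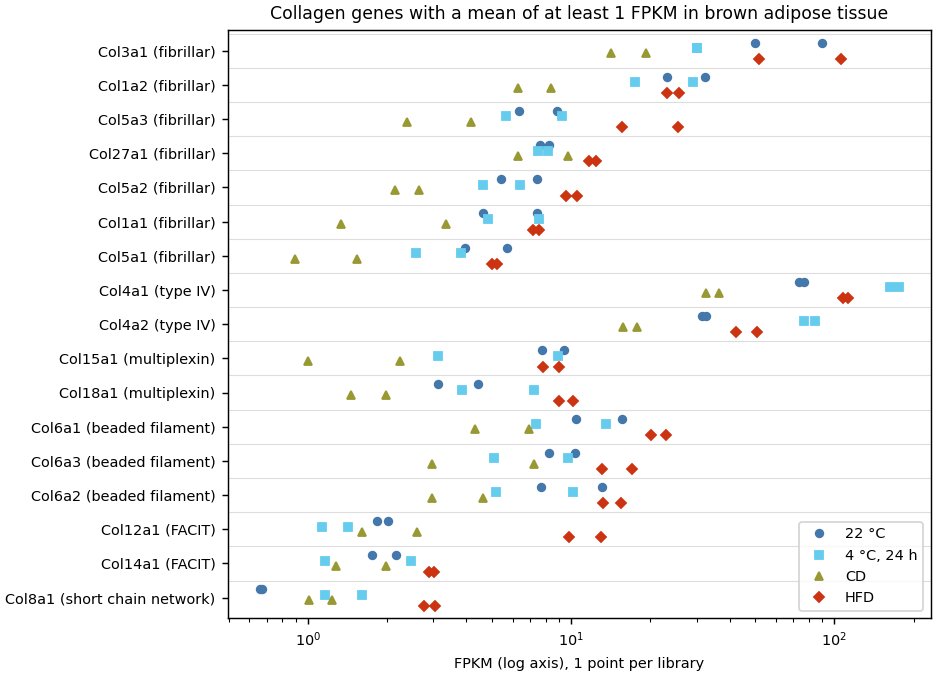
FPKM of the 17 collagen genes averaging 1 FPKM or more, on a log axis, with 1 point per library and the class in parentheses. Both 4 °C libraries lie above both 22 °C libraries for Col4a1, Col4a2 and Col8a1 and below them for Col3a1, Col5a1 and Col12a1. Of all 10807 genes at this level, 4987 lie higher and 1691 lower in both 4 °C libraries. Both HFD libraries lie above both CD libraries for all 17 genes, as for 4197 of all 10797 genes at this level.

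After 24 h at 4 °C, the type IV chains Col4a1 and Col4a2 stood higher and the leading fibrillar chain lower. Col4a1 had 76.6 and 73.2 FPKM at 22 °C and 176 and 162 FPKM at 4 °C. Col4a2 had 32.7 and 31.6 FPKM at 22 °C and 84.9 and 76.8 FPKM at 4 °C. For both chains the groups lay apart and the libraries of a group were close, at 74.9 ± 2.34 against 169 ± 9.31 FPKM for Col4a1 (SD, n = 2 each). Col3a1 (ENSMUSG00000026043, chromosome 1, 45311538 to 45349706), the type III chain, stood the other way, with 90.0 and 50.1 FPKM at 22 °C and 30.1 and 30.0 FPKM at 4 °C. Its 22 °C libraries differed from each other by more than the lower of them did from the 4 °C libraries. In such bulk samples, fewer cells of a type and less RNA per cell cannot be told apart.

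None of these differences passed the test in the planned fit. Differences were tested with limma on log2(FPKM + 1) over all 17470 autosomal genes that had at least 0.1 FPKM in 2 of the 4 libraries, and a gene was called at a Benjamini-Hochberg adjusted p under 0.05 with a 2-fold change or more. Of the 42 collagens, 30 entered and 0 were called, against 1.44% of all genes tested. On the log2 scale, Col4a2 differed by 1.30 (SE 0.21) with an adjusted p of 0.0517 by limma. Col4a1 differed by 1.16 (SE 0.23, with 0.0645 as its adjusted p by limma). Col3a1 differed by −1.13 (SE 0.32, with 0.119 as its adjusted p by limma). Both type IV chains were called once library type (Gm10800 high or low) entered as a covariate, with adjusted p of 0.0388 for Col4a1 and 0.0288 for Col4a2 by limma, in a fit that called 4.92% of all genes. Over 12 alternatives the adjusted p ranged from 0.0152 to 0.187 for Col4a2, from 0.0233 to 0.314 for Col4a1 and from 0.0455 to 0.606 for Col3a1. Without 22 °C replicate 7 the log2 fold change of Col3a1 was −1.55, and without replicate 4 it was −0.72. Each of these 2 fits leaves 1 library at 22 °C. The median log2 fold change of genes averaging 1 FPKM or more was 0.20, so that these differences stand beside a general shift of that size.

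Of the other 6 fibrillar chains averaging 1 FPKM or more, 5 had a negative estimate in the cold and Col1a1 a positive one, which turned negative after median centring or quantile normalization. Col1a2, Col5a2, Col5a3 and Col27a1 turned positive when 1 of the libraries was left out. Col1a2 (ENSMUSG00000029661, chromosome 6, 4504814 to 4541544), the second chain of type I collagen, had 32.2 and 23.1 FPKM at 22 °C and 29.1 and 17.6 FPKM at 4 °C, and the groups overlapped. Its partner Col1a1 (ENSMUSG00000001506, chromosome 11, 94936224 to 94953042) had 7.43 and 4.61 against 7.54 and 4.86 FPKM, also overlapping, with a log2 fold change of 0.04 (95% interval −0.71 to 0.79). After quantile normalization it was −0.24, and after median centring −0.22. Of the type V chains, Col5a1 was lower in both 4 °C libraries (5.70 and 3.96 against 3.83 and 2.58 FPKM), whereas Col5a2 and Col5a3 overlapped between groups. Col27a1, a fibrillar chain prominent in cartilage, was nearly level, with 7.61 and 8.25 against 8.17 and 7.49 FPKM. Across the 7 fibrillar chains averaging 1 FPKM or more, the median log2 fold change was −0.19, with a range from −1.13 to 0.04, and 2 lay lower in both 4 °C libraries, 0 higher and 5 overlapped, beside 1691 lower and 4987 higher of all 10807 genes at this level. This median turned to 0.04 without 4 °C replicate 11, and it was −0.58 within the Gm10800-high libraries and 0.21 within the others. The median of the 2 type IV chains was 1.23, beside 0.20 for all genes at this level.

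The remaining classes gave few separations at 4 °C. The 3 abundant type VI chains overlapped between groups and had log2 fold changes of −0.41 to −0.32. Without 4 °C replicate 11, the estimates of all 3 chains turned positive (0.018 to 0.086). Their 4 °C replicates differed strongly, Col6a1 for instance with 13.6 FPKM in replicate 2 and 7.37 in replicate 11. Col15a1 had 9.42 and 7.73 FPKM at 22 °C and 8.90 and 3.11 FPKM at 4 °C, and Col18a1, whose C-terminal part is released as endostatin, 4.43 and 3.12 against 7.24 and 3.86 FPKM. Both multiplexins therefore overlapped. The FACIT chain Col12a1, which binds type I fibrils, was lower in both 4 °C libraries (1.84 and 2.02 against 1.42 and 1.13 FPKM), and Col14a1 overlapped. Col8a1, a network chain of vessel walls, was higher in both, with 0.670 and 0.659 FPKM at 22 °C and 1.61 and 1.16 FPKM at 4 °C (log2 fold change 0.51, adjusted p 0.113 by limma).

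Over all 30 collagens tested, 6 lay higher in both 4 °C libraries (37.9% of all genes), 9 lower in both (20.6% of all genes) and 15 overlapped. At an unadjusted p under 0.05, 4 were higher (17.2% of all genes) and 6 lower (7.26% of all genes). Among low genes, named here after their values were seen, Col7a1, the chain of the fibrils that anchor epithelium, had 0.994 and 0.843 FPKM at 22 °C and 0.248 and 0.349 FPKM at 4 °C. The transmembrane chain Col13a1 stood the opposite way, with 0.432 and 0.313 against 0.978 and 1.17 FPKM. Col23a1, Col20a1 and Col6a6 were also lower in both 4 °C libraries, at 0.302 to 0.453 times the 22 °C mean. Col9a3 counts among the 9 and the 6 lower as well, but it passed the filter only through its 22 °C values. All are near or under 1 FPKM, where the added 1 understates a fold change, and adjusted p by limma was 0.183 for Col9a3 and 0.0572 (Col7a1) to 0.0855 (Col6a6) for the others.

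**Figure D2:**
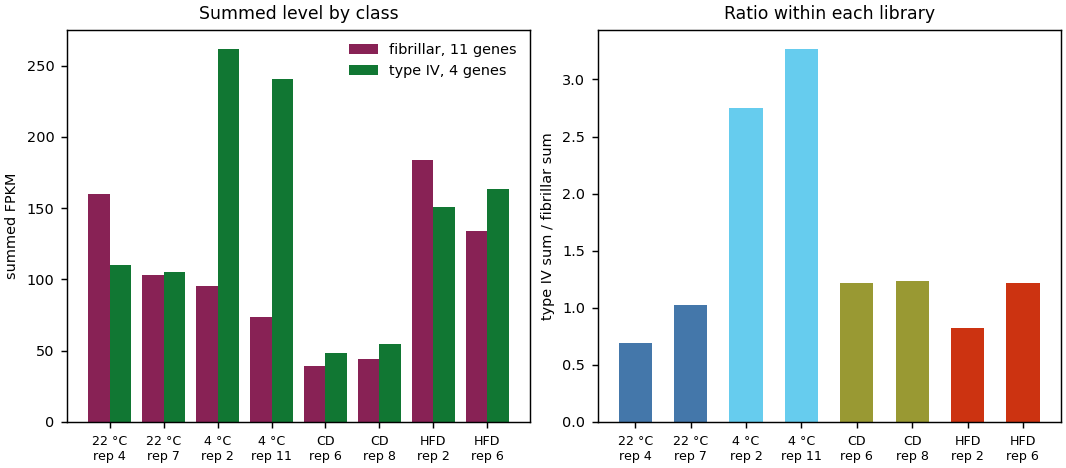
Left, summed FPKM of the 11 fibrillar and the 4 type IV genes in each library. Right, the ratio of the type IV to the fibrillar sum, which is 2.75 and 3.27 in the 4 °C libraries and 0.689 to 1.24 in the other 6.

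The ratio of the class sums is unaffected by a single scaling factor per library, because both sums come from the same library. Fibrillar chains summed to 160 and 103 FPKM at 22 °C and to 95.1 and 73.6 FPKM at 4 °C. Of these sums, Col3a1 alone supplied 90.0 and 50.1 FPKM at 22 °C and 30.1 and 30.0 FPKM at 4 °C. The lower fibrillar sum therefore rests largely on this gene, and 5 of the 7 fibrillar chains averaging 1 FPKM or more overlapped between groups. Type IV chains summed to 110 and 106 FPKM at 22 °C and to 262 and 240 FPKM at 4 °C. The ratio of type IV to fibrillar was thus 0.689 and 1.03 at 22 °C and 2.75 and 3.27 at 4 °C, a 3.56-fold difference of geometric means. Within the Gm10800-high libraries it went from 0.689 to 3.27 and within the others from 1.03 to 2.75. Groups did not overlap, but an exact two-sided permutation test over 4 libraries gives p = 0.333, the smallest p that 2 against 2 allow. With the multiplexins added to type IV, the difference was 3.34-fold. Col4a1 over Col3a1 alone went from 0.851 and 1.46 to 5.83 and 5.42. As a share of all collagen FPKM, type IV made up 62.9% and 69.5% at 4 °C and 33.1% to 46.0% in the other 6 libraries.

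Markers of other cell types stood differently in the cold libraries. The 8 skeletal muscle markers found in the table, Ckm and Myh4 among them, were all higher in both 4 °C libraries, with sums of 518 and 103 FPKM at 22 °C and 4010 and 1793 FPKM at 4 °C. The 8 fibroblast markers summed to 574 and 380 against 732 and 470 FPKM, and all 8 overlapped between groups. The 8 endothelial markers summed to 99.4 and 103 against 117 and 155 FPKM, with 4 higher in both 4 °C libraries and 2 lower. Among all genes tested, 37.9% lay higher and 20.6% lower in both 4 °C libraries. The part of these cells in the collagen values was not tested.

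Genes that process or bind collagen were read in the same fit. Of all genes tested, 37.9% lay higher and 20.6% lower in both 4 °C libraries, and the counts of several lists were near these shares. Of 19 tested genes for procollagen folding and modification, 0 were called, 8 lay higher in both 4 °C libraries and 3 lower. Their 2 most abundant members, the collagen chaperone Serpinh1 and the procollagen export factor Mia3, had log2 fold changes of 0.28 and 0.11. The 12 genes of propeptide cleavage and crosslinking had 0 calls, 3 higher and 2 lower in both, with Tll1 among the lower although it passed the filter only through its 22 °C values. The crosslinking enzyme Loxl1 went from 2.38 and 3.98 to 10.2 and 9.00 FPKM (log2 fold change 1.37, adjusted p 0.0591 by limma). Its list's most abundant gene, the procollagen C-proteinase enhancer Pcolce, differed by 0.07 on the log2 scale, with overlapping groups. Of 15 basement membrane partners such as laminins and nidogens, 0 were called, 6 lay higher in both and 1 lower. Sparc, a collagen-binding protein, had a log2 fold change of −0.11 and the laminin chain Lamb1 0.47. The 8 collagen receptors (0 called, 1 higher and 1 lower in both) and the 9 fibril-associated genes (0 called, 3 higher and 0 lower in both) were read likewise. The 3 higher, named after their values were seen, were the thrombospondins Thbs1 and Thbs2, with log2 fold changes of 1.03 and 1.17, and Tnxb with 0.42. The integrins Itgb1 and Itga1 had log2 fold changes of 0.28 and −0.50, and the small proteoglycan gene Dcn and the matricellular gene Postn 0.61 and 0.16.

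**Figure D3:**
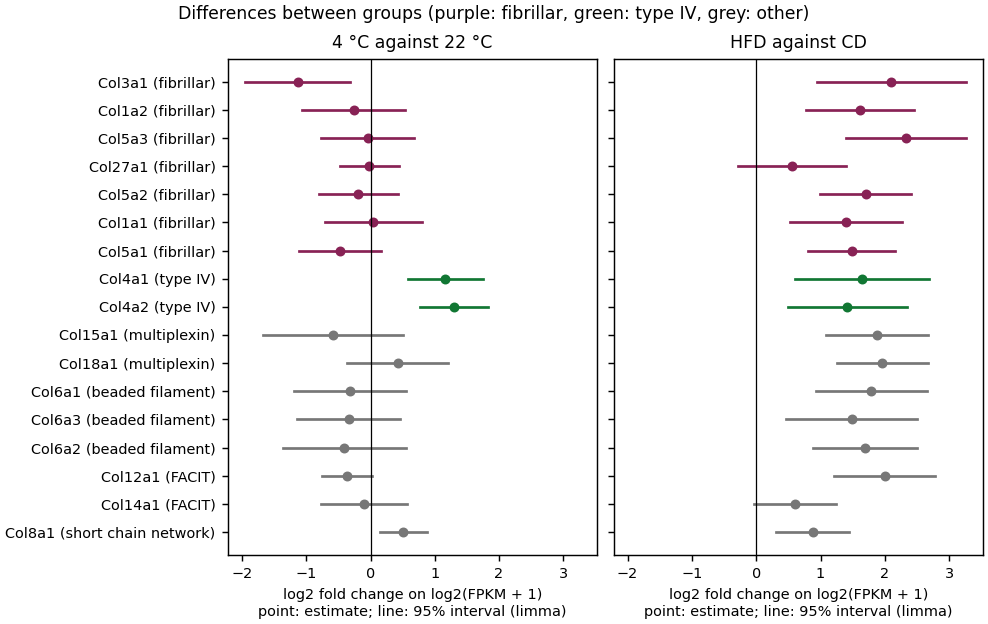
Log2 fold change on the log2(FPKM + 1) scale for the 17 genes averaging 1 FPKM or more, at 4 °C against 22 °C (left) and under HFD against CD (right), with 95% intervals from limma. In the cold the 2 type IV chains stand at 1.16 and 1.30 and Col3a1 at −1.13, and under HFD all 17 estimates lie above 0, from 0.56 to 2.33.

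Under HFD, the fibrillar and type IV chains averaging 1 FPKM or more stood higher side by side. Col4a1 had 32.5 and 36.5 FPKM with CD against 108 and 112 FPKM with HFD, and Col4a2 15.7 and 17.8 against 42.5 and 50.7 FPKM. Col3a1 had 14.2 and 19.3 against 106 and 51.8 FPKM, with the HFD libraries far from each other. In type I collagen, Col1a2 had 6.26 and 8.41 against 25.7 and 23.1 FPKM, and Col1a1 1.34 and 3.36 against 7.56 and 7.17 FPKM. All 17 collagens averaging 1 FPKM or more were higher in both HFD libraries than in both CD libraries, whether fibrillar, network-forming or fibril-associated, as were 4197 of all 10797 genes at this level.

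Estimates above those of the type IV chains came from abundant and less abundant chains alike, with 2.1 on the log2 scale for Col3a1. Without HFD replicate 2, however, Col3a1 stood at 1.59, below Col4a1 at 1.68. Col5a3 (ENSMUSG00000004098, chromosome 9, 20770050 to 20815067), a type V chain, had 4.16 and 2.38 FPKM with CD against 15.6 and 25.5 FPKM with HFD, 6.28 times the CD mean. Col12a1 (ENSMUSG00000032332, chromosome 9, 79598991 to 79718831) had 2.61 and 1.61 FPKM with CD against 9.79 and 13.0 FPKM with HFD, and in the 4 libraries of the cold experiment 1.13 to 2.02 FPKM. Its HFD libraries were therefore the 2 highest of all 8 by a wide margin. Of the multiplexins, Col18a1 had 1.98 and 1.46 against 8.97 and 10.2 FPKM, and Col15a1 2.25 and 1.0 against 7.82 and 8.97 FPKM. The other type V chains followed, Col5a2 with 2.63 and 2.15 against 10.5 and 9.53 FPKM and Col5a1 with 0.895 and 1.54 against 5.24 and 5.03 FPKM. The type VI chains stood together, with Col6a1 at 6.94 and 4.33 against 20.1 and 22.9 FPKM, Col6a2 at 4.61 and 2.97 against 13.2 and 15.5 FPKM and Col6a3 at 7.26 and 2.96 against 13.1 and 17.1 FPKM. The smallest differences were those of Col27a1 (9.76 and 6.30 against 12.5 and 11.7 FPKM), Col14a1 (1.27 and 1.97 against 3.02 and 2.90 FPKM) and Col8a1 (1.23 and 1.01 against 3.03 and 2.77 FPKM).

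No collagen was called under HFD in the planned fit, where few genes of any kind were. Of 29 collagens tested, 0 were called, against 0.0684% of the 17535 genes tested. At an unadjusted p under 0.05, 18 of the 29 were higher (12.1% of all genes) and 0 lower (2.34% of all genes). Both HFD libraries were higher for 22 (39.9% of all genes) and lower for 3 (5.8% of all genes), and 4 overlapped. Col18a1 was higher by 1.96 on the log2 scale (SE 0.30) with an adjusted p of 0.115 by limma, Col12a1 by 2.0 (SE 0.34) with 0.12 and Col5a3 by 2.33 (SE 0.40) with 0.128. Over the 17 abundant genes, log2 fold changes ranged from 0.56 to 2.33 with a median of 1.65, beside a median of 0.29 for all genes at that level. The median was 1.62 for the 7 fibrillar chains and 1.53 for the 2 type IV chains, on the log2(FPKM + 1) scale. As a linear ratio of mean FPKM, HFD over CD was 4.71 for Col3a1, 3.32 for Col1a2, 3.19 for Col4a1 and 2.78 for Col4a2. The Col3a1 value and its place depend on HFD replicate 2, which had 106 FPKM against 51.8 in replicate 6.

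The number of calls depended on the libraries and the covariate. With library type as a covariate, 14 of the 29 were called, all higher, in a fit that called 4.24% of all genes. They were the fibrillar chains Col1a1, Col1a2, Col3a1, Col5a1, Col5a2 and Col5a3, the type IV chains Col4a1 and Col4a2, the type VI chains Col6a1, Col6a2 and Col6a3, and Col12a1, Col15a1 and Col18a1, with adjusted p from 0.00166 (Col5a3) to 0.0123 (Col1a1) by limma. CD replicate 6 is the CD library whose description starts with SN, and without it, that is among libraries of 1 prefix, 8 were called beside 4.23% of all genes. Leaving out CD replicate 8 gave 9 calls (1.36% of all genes), leaving out HFD replicate 2 gave 4 (2.08%), and leaving out HFD replicate 6 gave 0 (0.59%). Calls over all genes were thus more frequent in each of these fits than with all 4 libraries. Col5a3, Col12a1, Col15a1 and Col18a1 were the 4 called without HFD replicate 2, and all of them were also among those called without either CD library.

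The class balance was then read between diets. Fibrillar chains summed to 39.6 and 44.1 FPKM with CD against 184 and 134 FPKM with HFD, and type IV chains to 48.4 and 54.6 against 151 and 163 FPKM. All autosomal collagens together summed to 118 and 119 FPKM with CD against 418 and 394 FPKM with HFD. The ratio of type IV to fibrillar was 1.22 and 1.24 with CD against 0.820 and 1.22 with HFD, 0.813-fold by geometric means. The ranges touch to the third digit, the exact two-sided permutation p was 0.333, the smallest possible, and with multiplexins counted as basement membrane the groups overlapped (exact permutation p = 1). The younger mice at 22 °C had collagen sums of 333 and 254 FPKM, above CD, but they differ from the CD mice in age and experiment and no comparison was made.

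Of the collagens below 1 FPKM, 12 were tested under HFD, and 5 were higher in both HFD libraries, 3 lower and 4 overlapped, beside 39.9% higher and 5.8% lower of all genes tested. Named after their values were seen, Col16a1 had 0.303 and 0.462 FPKM with CD against 1.32 and 1.29 FPKM with HFD, and Col13a1 0.266 and 0.296 against 0.828 and 0.515 FPKM. Col11a2, Col7a1 and Col20a1 were the 3 lower in both, at 0.579 to 0.698 times the CD mean. The type IV chains Col4a3 and Col4a4, which together with Col4a5 build the network of the kidney glomerulus, were far below the main type IV pair in level. Col4a3 had 0.0561 and 0.144 FPKM with CD against 0.119 and 0.0811 FPKM with HFD, and in the cold experiment 0.329 to 0.640 FPKM, where both 4 °C libraries were higher. Its log2 fold changes were 0.00 under HFD and 0.17 in the cold. Col4a4 had 0.0777 and 0.165 FPKM with CD against 0.214 and 0.201 FPKM with HFD, higher in both, and overlapped in the cold.

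Other cell type markers also differed between diets. The 8 fibroblast markers summed to 184 and 161 FPKM with CD against 441 and 645 FPKM with HFD, with 5 higher in both HFD libraries and 0 lower. The 5 macrophage markers, among them Adgre1 and Cd68, were all higher in both, with sums of 106 and 38.0 against 185 and 237 FPKM. Endothelial markers summed to 83.4 and 82.9 against 123 and 136 FPKM, with 5 of 8 higher in both. Of the 6 mural markers, 4 were higher in both HFD libraries and 0 lower. Of the 6 brown adipocyte markers, 0 were higher in both and 2 lower. Among all genes tested, 39.9% lay higher and 5.8% lower in both HFD libraries. All 8 skeletal muscle markers were lower in both HFD libraries, with sums of 532 and 1369 against 161 and 14.4 FPKM, the opposite of the cold comparison. The part of these cells in the collagen values was not tested.

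Most genes of collagen processing also lay higher under HFD, with 0 called in each list, beside 39.9% of all genes higher in both HFD libraries and 0.0684% called. Of 19 folding and modification genes, 13 were higher in both HFD libraries and 0 lower, with Serpinh1 at 94.9 and 27.9 against 107 and 165 FPKM and Mia3 at a log2 fold change of 0.43. Of 12 genes of cleavage and crosslinking, 11 were higher in both, among them Adamts14, which passed the filter only through its HFD values. Pcolce, which speeds removal of the C-propeptide of fibrillar procollagen, had 6.11 and 5.45 FPKM with CD against 41.2 and 27.5 FPKM with HFD (log2 fold change 2.36 with SE 0.38 and an adjusted p of 0.118 by limma), and Loxl1 had a log2 fold change of 1.37. Basement membrane partners were higher in both for 12 of 15, Sparc with 58.3 and 69.5 against 218 and 157 FPKM, whereas Lamb1 overlapped between diets. Receptors were higher in both for 6 of 8, with log2 fold changes of 0.69 for Itgb1 and 0.44 for Itga1. Fibril-associated genes were higher in both for 6 of 9, with 0.63 for Dcn and 0.61 for Postn.

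**Figure D4:**
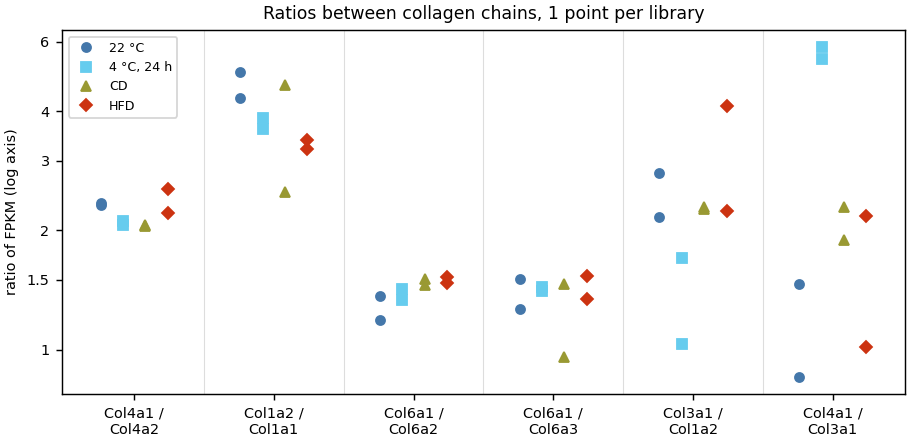
Ratios of FPKM between pairs of chains on a log axis, with 1 point per library. Col4a1 over Col4a2 stays between 2.05 and 2.54 in all 8 libraries, whereas Col4a1 over Col3a1 spans 0.851 to 5.83 and is highest in the 4 °C libraries.

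Proportions between chains differed in how far they varied. Col4a1 over Col4a2 was 2.34 and 2.32 at 22 °C and 2.07 and 2.11 in the cold. It was 2.07 and 2.05 with CD against 2.54 and 2.22 with HFD, although the level of Col4a1 itself spanned 32.5 to 176 FPKM. The low type IV pair varied more, with Col4a3 over Col4a4 from 0.404 under HFD to 1.35 at 4 °C. Col6a1 over Col6a2 was 1.19 to 1.52, and Col6a1 over Col6a3 0.956 to 1.53 with CD replicate 6 the lowest. Col1a2 over Col1a1, whose products combine as 1 Col1a2 to 2 Col1a1 chains in type I collagen, was 2.51 to 5.02, so that the transcript proportion by FPKM ran opposite to that of the chains in every library. Col3a1 over Col1a2 was 2.79 and 2.16 at 22 °C, 1.04 and 1.71 in the cold, 2.27 and 2.30 with CD and 4.13 and 2.24 with HFD, the widest spread within a group being that under HFD. The libraries share a normalization, and such ratios are descriptions over 8 libraries.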

How the data were processed

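RNA was isolated from BAT, depleted of ribosomal RNA and made into directional libraries. The authors mapped reads with TopHat2 2.0.10 to GRCm38 and deposited FPKM per gene and library, from Cufflinks (2.2.1 per the submitters' processing notes), without pooling. Depth per library is not given in the table. In single-transcript genes 97.6% to 98.4% of low values were whole fragments within 0.1, which puts 1 fragment on 2000 bases at 0.00437 to 0.00602 FPKM, counting error only.

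FPKM was analysed as log2(FPKM + 1), so fold changes of low genes are understated, with limma 3.58.1 (lmFit, eBayes with trend) in R 4.3.3. Each fit used the 4 libraries of its comparison and no covariate. P-values are two-sided. The authors tested counts, which were not used here. Groups and replicate numbers came from the sample labels. The p-values by limma rest on the spread between the 2 mice of a group, pooled over both groups and moderated toward a trend over all genes. Because each group holds 1 Gm10800-high library, this spread includes library type wherever that is no covariate. Any pair of libraries shared at most 1 identical value above 0. Genes on X, Y and the mitochondrial genome were left out. The collagen list, classes, marker lists and pathway lists were chosen with earlier results of these data known. Values were named for members averaging 1 FPKM or more, for members called, and for called or the 2 most abundant genes of each pathway list. Other low members and pathway genes were named after their values were seen. Loxl1 and Pcolce are the 2 most abundant genes of their list. Alternatives were the filter, pseudocount, scaling, covariate, libraries in the fit and call rule. The code was tested on simulated data.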

Additional observations from a re-analysis of the deposited data

Results flagged for a closer look

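Col4a5, one of the 2 type IV chains on the X chromosome, was not part of the comparisons. It had 0.659 and 0.878 FPKM under HFD and 0.345 FPKM in CD replicate 8, while CD replicate 6 and both 22 °C libraries list it at 0, as they do every X gene. It drew attention because the lower HFD library, at 0.6594 FPKM, lay above the highest CD value of 0.3449 FPKM. No test was run. The 4 °C libraries had 0.535 and 0.487 FPKM.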

How the results depend on the processing

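No pairing by replicate number was possible because no number occurs in both temperature groups and only 1 (number 6) in both diet groups. Library type, of which each group holds 1 high and 1 low library, entered as a covariate. The fit with both library type and all 8 libraries was chosen after seeing the data. In the cold the number of collagens called, 0, became 1 with a 1 FPKM filter (Col4a2), with a pseudocount of 0.1 (Col4a2) or with all 8 libraries in the fit (Col4a2), 2 with median centring (Col4a2, Col3a1) or the library type covariate (Col4a1, Col4a2), 3 with that covariate and all 8 libraries, and 3 at a 2-fold change with no test. Of all genes, 4.84%, 2.72%, 2.51%, 4.33%, 4.92% and 4.97% were called in the first 6 of these fits, beside 1.44%. For the 2-fold change with no test, the share of all genes was not computed, in the cold or under HFD. Its counts, 3 collagens in the cold and 14 under HFD, therefore cannot be read as an excess over other genes. The median log2 fold change of all genes averaging 1 FPKM or more was 0.20 in the cold and 0.29 under HFD. The 0.0684% given below belongs to the planned fit and is no comparison for the 14. The fits with 1 library left out have a group of 1. Their calls are not counted in this list, for the cold or for HFD, and their effect sizes are given below. Under HFD, 0 became 4 with median centring (0.26% of all genes called) or all 8 libraries (0.43%), 14 with the covariate (4.24%), 13 with the covariate and all 8 libraries (2.50%), 14 at a 2-fold change with no test, and 0 to 9 with 1 library left out, beside 0.0684% of all genes in the planned fit. A group left with 1 library was assumed to vary like the others.

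The fibrillar median in the cold (−0.19) was −0.46 after quantile normalization, −0.44 after median centring, −0.58 in the Gm10800-high libraries and 0.21 in the others, and −0.39 to 0.04 with 1 library left out. The type IV median in the cold (1.23) was 0.69, 0.98, 1.14 and 1.32 in the same order, 0.79 with the multiplexins, and 1.17 to 1.30 with 1 library left out. Under HFD the fibrillar median (1.62) was 2.03 with a pseudocount of 0.1, 1.31 after quantile normalization, 1.26 after median centring, and 1.43 to 1.80 with 1 library left out. The type IV median (1.53) was 1.35 and 1.18 after those scalings, 1.37 and 1.69 within the library types, and 1.76 with the multiplexins. Median centring moved the median log2 fold change of genes with at least 1 FPKM to −0.05 in the cold (0.20 before) and to −0.07 under HFD (0.29 before).

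Of single genes, Col1a1 in the cold turned from 0.04 to −0.24 (quantile normalization) and −0.22 (median centring). Leaving out 1 library turned the direction in the cold for Col1a1 (−0.25 to 0.33), Col1a2 (−0.61 to 0.088), Col5a2 (−0.39 to 0.011), Col5a3 (−0.35 to 0.27), Col6a1 (−0.72 to 0.086), Col6a2 (−0.84 to 0.018), Col6a3 (−0.75 to 0.062), Col14a1 (−0.45 to 0.24), Col15a1 (−1.21 to 0.053) and Col27a1 (−0.071 to 0.039). None of the 17 genes averaging 1 FPKM or more changed direction under HFD in the alternatives run. The causes of these shifts were not tested. Depth is not given in the table.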
